A study of Mus musculus with 10 samples.

Results

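MHC class II presentation was followed through 10 genes in inflamed mouse ear skin. They encode the class II chains (H2-Aa, H2-Ab1, H2-Eb1 and H2-Eb2), the peptide-loading proteins (H2-DMa, H2-DMb1, H2-Oa and H2-Ob), the invariant chain (Cd74) and the class II transactivator (Ciita). The genes were chosen by symbol, with earlier results of these data known. In the expression table of 19703 genes, 10 of 10 were found. RNA-seq was performed on left ear skin painted with MC903 (calcipotriol, a vitamin D analogue that provokes dermatitis and itch), on 7 consecutive days and again on day 8. On day 8 the mice were gavaged with 100 µl, holding vehicle in 1 group (5 samples) and GSK1562590 at 5 mg/kg in the other (5 samples), and per the labels the skin was collected on day 13. GSK1562590 is an antagonist of the urotensin II receptor, also called GPR14, and the study asked how it altered itch and inflammatory gene expression. Every sample carried MC903, so no unpainted skin was analysed here, and the sources used here give no strain, sex or age. The sample numbers are not stated to be separate mice, so p-values measure the spread between these samples, which may be technical.

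Class II molecules are cell-surface heterodimers that show peptides from internalised proteins to CD4+ T cells. Newly made chains bind the invariant chain in the endoplasmic reticulum and travel with it to endosomes, where proteases trim it to a fragment called CLIP. H2-DM exchanges CLIP for antigenic peptide, and H2-O holds H2-DM in check. Dendritic cells, Langerhans cells, macrophages and B cells are the usual carriers in skin. Their transcription depends on CIITA, a coactivator that binds no DNA itself and docks on RFX, CREB and NF-Y proteins at the X and Y elements of class II promoters.

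Because CIITA acts through these elements, the proximal promoters are shown first. RefSeq promoter windows of 300 bases (250 before and 50 after the gene start, build GRCm38.p6) were present for 7 of the 10 genes, and 6 of those 7 held an X-like core GNAAC followed by the Y core GATTGG on the gene's strand. The cores began 29 to 32 bases apart in those 6. In the stretches below, written 5′ to 3′ on the gene's strand, the capitals mark first the X-like and then the Y core.
H2-Aa (chr17:34287855-34287916, minus strand): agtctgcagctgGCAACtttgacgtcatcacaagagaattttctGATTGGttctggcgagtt
H2-Eb1 (chr17:34305764-34305824, plus strand): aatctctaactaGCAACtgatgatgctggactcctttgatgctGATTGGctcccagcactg
H2-Eb2 (chr17:34325531-34325591, plus strand): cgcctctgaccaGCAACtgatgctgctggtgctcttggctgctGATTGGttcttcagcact
H2-DMb1 (chr17:34153085-34153146, plus strand): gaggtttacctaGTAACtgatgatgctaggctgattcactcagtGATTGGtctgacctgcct
H2-Oa (chr17:34092291-34092352, plus strand): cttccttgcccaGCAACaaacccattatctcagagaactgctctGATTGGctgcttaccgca
H2-Ob (chr17:34238806-34238864, plus strand): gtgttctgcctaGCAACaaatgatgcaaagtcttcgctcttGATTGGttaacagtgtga

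The letters and the allowed spacing of 25 to 40 bases between core starts were set after these sequences had been viewed, so the count is a description. Among all 32851 promoter windows, 16.1% held GATTGG on either strand, 84.8% held GNAAC on either strand, and 0.457% held the ordered pair at this spacing on the gene's strand (0.922% on either strand). The Y core began 44 to 101 bases before the start each window is built on, which for H2-DMa and H2-Eb2 lies inside the gene's extent as given below. H2-DMa had 2 windows, of which 1 held GATTGG on the gene's strand and neither held the pair. The palindrome TGACGTCA, the consensus bound by CREB proteins, lay between both cores of H2-Aa and in 1.79% of all windows. A match of letters is not a measured binding site, and no binding was measured.

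All 10 genes passed the filter on low counts, and 9 of them were lower in antagonist ears. The exception was H2-Eb2. With the quasi-likelihood test of edgeR, Benjamini-Hochberg adjustment over 15174 tested genes, and calling an adjusted p under 0.05, 17.4% of all tested genes were called lower, against 9 of these 10. The median log2 fold change (antagonist over vehicle) of the 10 was -1.32, with a range of -1.46 to -0.99, while the median over all tested genes was 0.00. In the same 9 genes every antagonist sample lay below every vehicle sample, which held for 10.8% of all tested genes. The genes and the lists below were chosen with earlier results of these data known, so counts set against these shares are descriptions. Library totals were 20183024 to 20606007 expected counts. In bulk skin, fewer cells carrying these transcripts and less transcript per cell cannot be told apart.

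H2-Aa and H2-Ab1 encode the alpha and beta chains of I-A, the classical class II molecule. H2-Aa (chr17:34282744-34287823, minus strand) stood at 645, 644, 435, 642 and 581 CPM (counts scaled to library size, by TMM) in vehicle samples 3, 9, 10, 11 and 12, and at 199, 120, 283, 369 and 207 CPM in antagonist samples 4, 6, 7, 8 and 10. The groups did not overlap, although vehicle sample 10 came close to antagonist sample 8. The means were 589 ± 90.4 and 236 ± 94.3 CPM (SD, n = 5 each), a 2.50-fold lower level with a log2 fold change of -1.32 ± 0.25 (SE; edgeR adjusted p = 0.00331).

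H2-Ab1 (chr17:34263227-34269418, plus strand) stood at 381, 447, 306, 444 and 408 CPM in vehicle and at 139, 78.0, 197, 240 and 142 CPM in antagonist samples, in the same sample order. The lowest vehicle and highest antagonist samples were again 10 and 8, and the groups did not overlap. The means of 397 ± 57.7 and 159 ± 61.7 CPM gave a log2 fold change of -1.32 ± 0.25 (edgeR adjusted p = 0.00321). The partner chains of I-A thus had equal fold changes to 2 decimals.

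H2-Eb1 encodes the beta chain of I-E, the other classical molecule. H2-Eb1 (chr17:34305867-34316674, plus strand) stood at 277, 297, 203, 304 and 266 CPM in vehicle and at 90.0, 51.7, 117, 157 and 93.3 CPM in antagonist samples. The groups did not overlap. The means were 270 ± 40.1 and 102 ± 38.6 CPM, 2.65-fold lower, with a log2 fold change of -1.41 ± 0.24 (edgeR adjusted p = 0.00227). The I-E alpha chain gene, H2-Ea, which is not among the 10, had 0 to 2 counts per library and was not tested. Its extent is given as 649009 to 34347547 on chromosome 17, which spans the whole of H2-Eb1, so the given positions of H2-Ea may be faulty. Why its counts were near 0 was not tested, and no I-E protein was measured.

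H2-Eb2, a little-expressed beta chain gene next to H2-Eb1 (chr17:34325503-34341410, plus strand), had 7 to 23 counts in vehicle and 1 to 14 in antagonist libraries. Its levels were 0.804, 0.761, 0.350, 0.871 and 1.14 CPM in vehicle and 0.188, 0.0499, 0.453, 0.693 and 0.148 CPM in antagonist samples. Vehicle sample 10 lay below antagonist samples 7 and 8, so the groups overlapped. The log2 fold change was -1.35 ± 0.51, of similar size to the others, with an edgeR adjusted p of 0.0597. DESeq2 gave an adjusted p of 0.0465 for H2-Eb2 and so called 10 of the 10 lower, against 18.8% of all genes it tested, while the authors' deposited table gives a q-value of 0.0608. Reads from H2-Eb1, a close paralog with far more reads, could have been assigned to it, which was not tested.

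**Figure D1:**
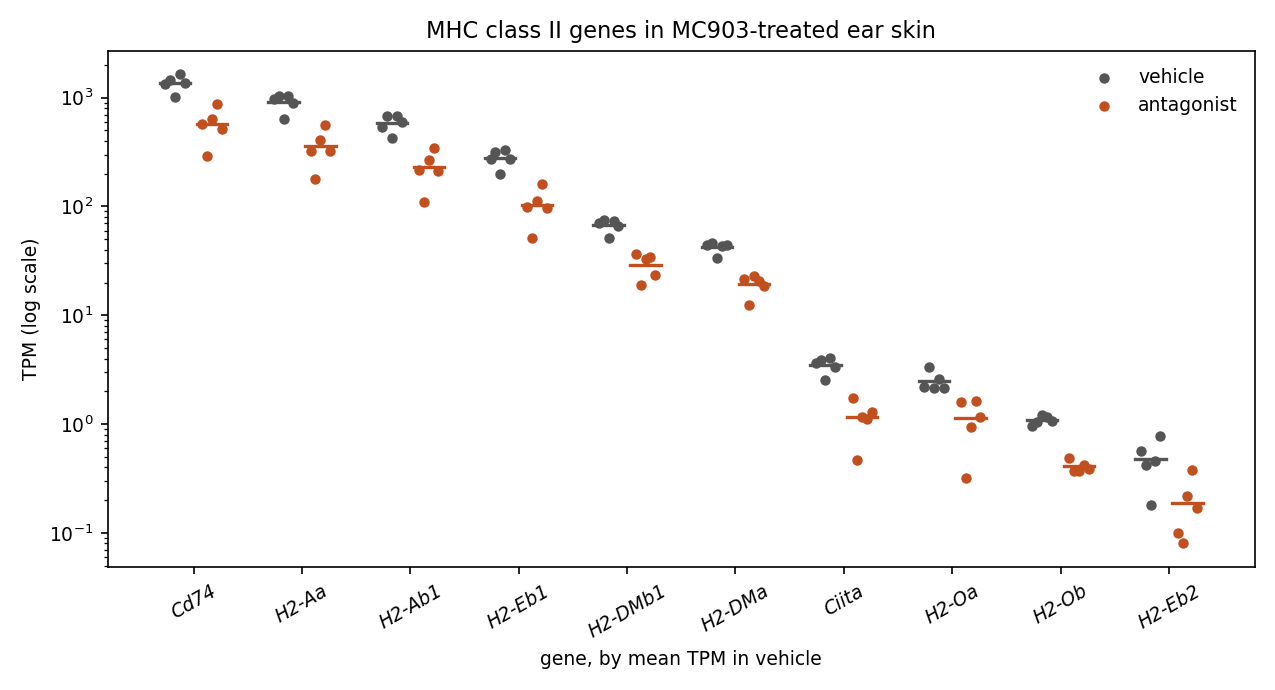
TPM (transcript abundance scaled for gene length and depth) of each of the 10 genes on a log axis, with vehicle samples in grey and antagonist samples in orange, 5 points each, and a line at the group mean. In 9 genes all antagonist points lie below all vehicle points, and the levels run from Cd74 at 1363 TPM to H2-Eb2 at 0.482 TPM in vehicle.

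H2-DMa and H2-DMb1 form the H2-DM heterodimer that loads peptide. H2-DMa (chr17:34119693-34139101, plus strand) stood at 46.0, 46.4, 36.4, 42.8 and 44.0 CPM in vehicle and at 23.3, 14.7, 26.5, 22.9 and 21.1 CPM in antagonist samples. The groups did not overlap, and the log2 fold change of -0.99 ± 0.13 (edgeR adjusted p = 0.00113) was the smallest in size of the 10. H2-DMb1 (chr17:34153191-34160229, plus strand) stood at 54.6, 52.7, 40.1, 52.0 and 49.3 CPM in vehicle and at 25.4, 14.7, 26.3, 25.6 and 17 CPM in antagonist samples. Its groups did not overlap either, at -1.19 ± 0.16 (edgeR adjusted p = 0.00115). H2-DMb2, its close paralog and neighbour, is taken up below, and the sources used here do not say how reads were divided between both copies.

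H2-Oa and H2-Ob form H2-O, the inhibitor of H2-DM, which is best known from B cells. Both were scarce. H2-Oa (chr17:34092379-34095234, plus strand) had 26 to 40 counts in vehicle and 4 to 20 in antagonist libraries, or 1.36, 1.90, 1.35, 1.5 and 1.29 CPM against 0.891, 0.200, 0.604, 0.990 and 0.690 CPM. The groups did not overlap, and the log2 fold change was -1.12 ± 0.31 (edgeR adjusted p = 0.0183). H2-Ob (chr17:34238905-34245908, plus strand) had 31 to 39 counts against 12 to 15, or 1.56, 1.57, 1.95, 1.74 and 1.68 CPM against 0.703, 0.599, 0.604, 0.644 and 0.591 CPM. H2-Ob had the widest gap between groups, with its lowest vehicle sample 2.21 times its highest antagonist sample. Its log2 fold change was -1.43 ± 0.16 (edgeR adjusted p = 6.27e-04). In both groups, H2-Ob spread less than counting error alone gives, with a coefficient of variation of 7.43% against 28.0% in antagonist samples. The gap, the SE and the adjusted p rest in part on this spread, so they may look firmer than these counts allow.

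Ciita, the coactivator that class II transcription depends on (chr16:10466860-10531064, plus strand), stood at 15.0, 15.9, 11.5, 15.2 and 14.2 CPM in vehicle and at 7.41, 2.30, 5.79, 4.90 and 5.67 CPM in antagonist samples. The groups did not overlap, and the lowest vehicle sample was 1.55 times the highest antagonist sample. The means of 14.4 ± 1.73 and 5.21 ± 1.87 CPM, 2.75-fold lower, gave a log2 fold change of -1.46 ± 0.23 (edgeR adjusted p = 0.00182), the largest in size of the 10.

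Cd74, the invariant chain and also a surface receptor for the cytokine MIF (chromosome 18, from 60803849 to 60812652), was the most abundant of the 10. It stood at 1011, 1020, 782, 1143 and 994 CPM in vehicle and at 395, 220, 491, 634 and 365 CPM in antagonist samples. The groups did not overlap. The means were 990 ± 130 and 421 ± 154 CPM, 2.35-fold lower, with a log2 fold change of -1.23 ± 0.23 (edgeR adjusted p = 0.00317).

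Levels between genes were compared per length, in TPM as the authors deposited it. In every one of the 10 samples the order ran Cd74, H2-Aa, H2-Ab1, H2-Eb1, H2-DMb1, H2-DMa, and H2-Eb2 was last. The means in vehicle were 1363 ± 229, 915 ± 166, 583 ± 107, 279 ± 51.5, 67.4 ± 9.45 and 42.3 ± 4.98 TPM for the first 6 of these, and 575 ± 208, 360 ± 141, 230 ± 87.0, 104 ± 39.0, 29.2 ± 7.60 and 19.3 ± 4.18 TPM in antagonist samples. Between them and H2-Eb2 lay Ciita (3.50 ± 0.602 and 1.15 ± 0.458 TPM), H2-Oa (2.48 ± 0.510 and 1.13 ± 0.538 TPM) and H2-Ob (1.09 ± 0.0988 and 0.408 ± 0.0502 TPM). The ranges of Ciita and H2-Oa overlapped in both groups, while Ciita was the higher within 5 of 5 vehicle and 4 of 5 antagonist samples. H2-Oa and H2-Ob, and H2-Ob and H2-Eb2, had separate ranges in vehicle and overlapped in antagonist ears. The neighbours H2-DMb1 and H2-DMa kept their order within each sample, and across samples their ranges were separate in vehicle (51.5 to 74.4 against 33.6 to 46.5 TPM) and overlapped in antagonist ears (18.9 to 36.4 against 12.4 to 23.0 TPM).

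Summed over the 10 genes, class II transcripts made up 0.237 to 0.382% of all TPM in vehicle and 0.0661 to 0.200% in antagonist samples. The 4 most abundant genes kept their order of shares. Cd74 took 41.9 ± 1.14% of the sum in vehicle and 43.6 ± 0.948% in antagonist samples, H2-Aa 28.1 ± 1.14 and 27.1 ± 1.03%, H2-Ab1 17.9 ± 0.809 and 17.3 ± 0.677%, and H2-Eb1 8.55 ± 0.161 and 7.85 ± 0.252%.

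Whether the genes fell by different amounts was tested on the log2 ratio of each to Cd74 in the same sample, with an exact permutation test, two-sided and over all splits of 5 against 5 (smallest possible p 0.00794), adjusted over 9 ratios. None of the 9 passed, but a lone ratio could not go below an adjusted p of 0.0714 in this design, so the test could not pass a difference seen in 1 gene alone. The ratio H2-Eb1 to Cd74 was lower by 0.17 on the log2 scale, from -1.88 ± 0.06 to -2.05 ± 0.06, without overlap between groups, at an exact p of 0.00794 and an adjusted p of 0.0714, which are those smallest values. H2-DMa moved the other way, by 0.30 (exact p = 0.111, adjusted p = 0.339), and Ciita by -0.22 (exact p = 0.389, adjusted p = 0.673). For H2-Aa and H2-Ab1 the ratio differed by -0.10 each, with an adjusted p of 0.339 for both by the exact test.

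Samples of 1 group differed from each other in a shared way. Antagonist sample 6 was the lowest of its group for 9 of the 10 genes and antagonist sample 8 the highest for 6, while vehicle sample 10 was the lowest of its group for 8. With the group means taken off log2 CPM, the 45 pairs of genes had a median Pearson r of 0.82 over the 10 samples, with a range of -0.17 to 0.99. These samples share library depth and composition, and the r is given as a description. Against the mean of the other members, r was 0.98 for Cd74, 0.97 for H2-Ab1, 0.97 for H2-Eb1, 0.96 for H2-Aa and 0.74 for Ciita. For H2-Ob r was -0.04. With 12 to 15 counts per antagonist library, counting error alone gives H2-Ob a coefficient of variation of 28.0%, above the 7.43% observed, so its spread and its r cannot be read at this depth.

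**Figure D2:**
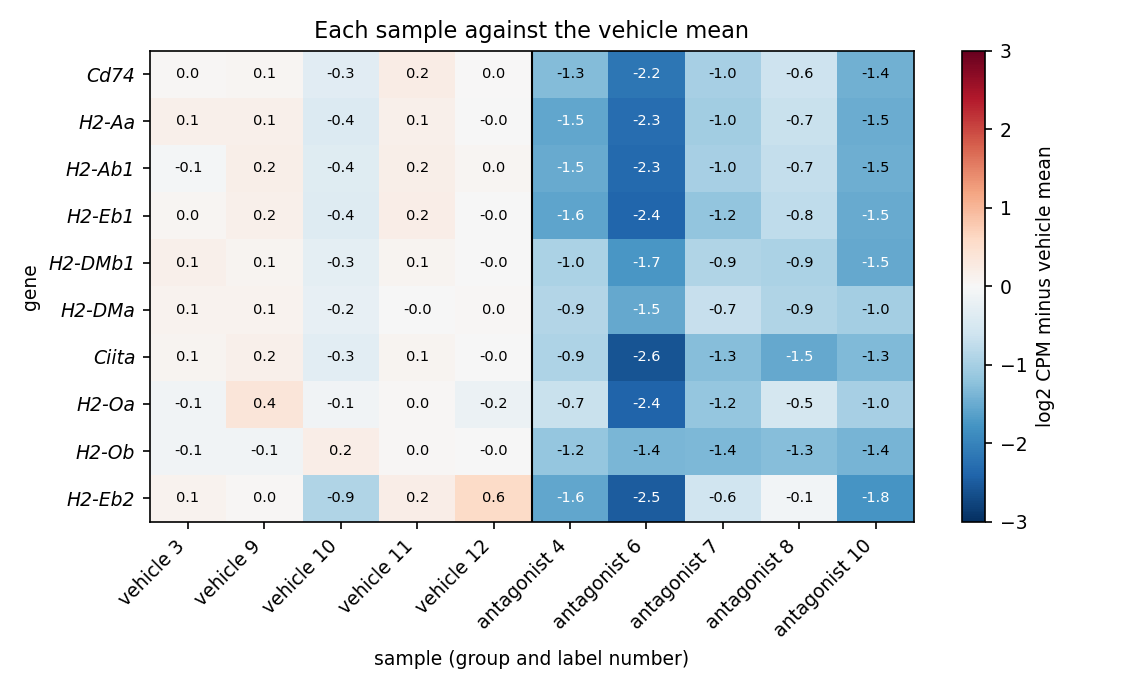
Log2 CPM of each of the 10 genes in each sample minus the gene's vehicle mean, with samples in columns and the vehicle group left of the line. The antagonist columns are negative for every gene, with sample 6 the lowest for 9 genes.

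Of 16 regulators of class II transcription (RFX, NF-Y and CREB1 factors, the interferon gamma pathway and 2 myeloid factors, Irf8 and Spi1), 3 were lower and 1 higher by edgeR, near the 17.4% of all tested genes called lower. Their median log2 fold change was -0.15. Ifngr2, a chain of the interferon gamma receptor, fell by 0.35 (SE 0.06, adjusted p = 0.00272), Jak2, the kinase bound to that chain, by 0.56 (SE 0.10, adjusted p = 0.00272), and Spi1, the myeloid factor PU.1, by 0.41 (SE 0.14, adjusted p = 0.0413). Rfxank, a subunit of RFX, rose by 0.29 (SE 0.07, adjusted p = 0.00954). Values of 3 others were added for their roles after they had been seen. Rfx5, the DNA-binding RFX subunit, had a log2 fold change of 0.04 ± 0.09. Irf1, a transcription factor induced by interferon, had -0.39 ± 0.36, and Ifng, interferon gamma itself, had -0.98 ± 0.69 at 0.838 and 0.427 CPM. None of these 3 passed the edgeR test, with adjusted p-values of 0.763, 0.424 and 0.287.

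Of 12 genes for antigen processing and class II turnover, 5 were lower and 0 higher, against 17.4% of all tested genes called lower. Their median log2 fold change was -0.19. H2-DMb2, the paralog of H2-DMb1, fell by 1.21 (SE 0.18, edgeR adjusted p = 0.00145), from 10.2 to 4.40 CPM. The other falls were smaller. Ctss, cathepsin S, which trims the invariant chain, fell by 0.51 (SE 0.17), and Sppl2a, the intramembrane protease that clears its remnant, fell by 0.41 (SE 0.08). Ifi30, a lysosomal thiol reductase, fell by 0.39 (SE 0.12), and Marchf1, a ubiquitin ligase that removes class II from the surface, fell by 0.58 (SE 0.18). The edgeR adjusted p-values of these 4 were 0.0413, 0.00486, 0.0260 and 0.0284.

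Most listed genes of costimulation and helper T cells were lower in antagonist ears. Of 14 listed, 12 were lower and 0 higher by edgeR, against 17.4% of all tested genes called lower. Their median log2 fold change was -1.10. Cd86 and Cd80, which provide the second signal to T cells, had log2 fold changes of -0.88 ± 0.09 and -1.07 ± 0.15 (edgeR adjusted p = 5.37e-04 and 0.00118). Pdcd1lg2, a ligand of PD-1, had -2.10 ± 0.25 (edgeR adjusted p = 7.31e-04), and Icos, an activation receptor of T cells, had -1.71 ± 0.23 (edgeR adjusted p = 0.00105).

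No listed gene of class I presentation passed the test. Of 10 genes, 0 were lower and 0 higher by edgeR, where 0 also had an unadjusted p under 0.05, and DESeq2 likewise called 0, with 1 at an unadjusted p under 0.05. The median log2 fold change was -0.12. The 4 with the smallest p were Psmb10, Psmb8 and Psmb9, subunits of the immunoproteasome, at -0.57 ± 0.26, -0.53 ± 0.36 and -0.39 ± 0.39, and B2m, the class I light chain, at -0.33 ± 0.33. The antagonist samples spread widely here, at 2661 to 8338 summed TPM against 3941 to 7592 in vehicle. Between the outermost class II genes on chromosome 17 lay 6 genes that are not among the 10. Of these, H2-DMb2 was lower and 5 were not called (Psmb8, Psmb9, Tap1, Tap2 and the chromatin reader Brd2), with a median log2 fold change of -0.19. Over all tested genes, 17.4% were called lower.

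**Figure D3:**
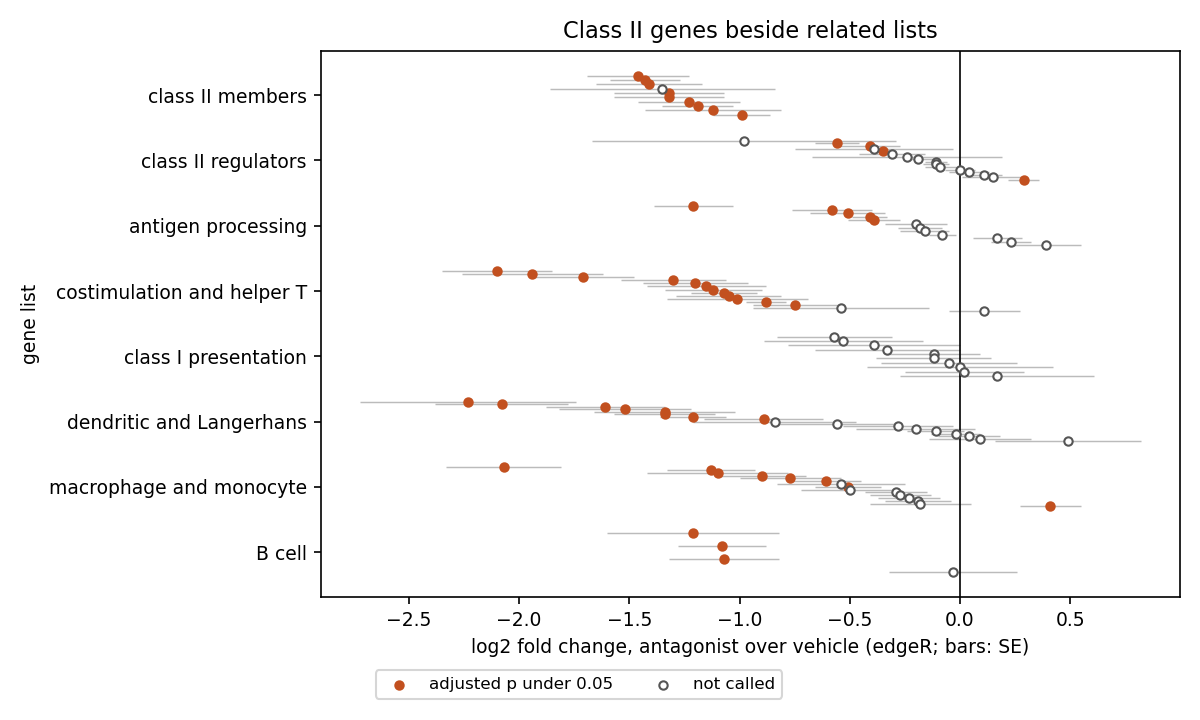
Log2 fold change (antagonist over vehicle, edgeR) of every tested gene in 8 gene lists, with SE as bars, filled points for an adjusted p under 0.05 and open points for genes not called. The 10 class II genes sit between -1.46 and -0.99, the class I genes between -0.57 and 0.17, and the costimulatory and T cell genes reach -2.10.

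Part of the markers of cells that carry class II were lower in antagonist ears. The counts below stand beside 17.4% of all 15174 tested genes called lower and 2530 called higher by edgeR. Of 17 dendritic and Langerhans cell markers, 8 were lower and 0 higher, with a median log2 fold change of -0.84 and summed levels of 383 to 498 TPM in vehicle and 230 to 400 TPM in antagonist samples. Itgax, the integrin CD11c, had -1.21 ± 0.15 (edgeR adjusted p = 8.52e-04) and Cd209a, a lectin of dermal dendritic cells, -2.08 ± 0.30 (edgeR adjusted p = 0.00132). Kmo, an enzyme of tryptophan breakdown, had -1.61 ± 0.27, and Ccl22, a chemokine of dendritic cells, had -1.34 ± 0.23 (edgeR adjusted p = 0.00203 and 0.00244). The other 9 of the 17 did not pass. Among them, named after their values were seen, Zbtb46, Xcr1 and Clec9a, markers of classical dendritic cells, had -0.11 ± 0.13, -0.20 ± 0.27 and 0.09 ± 0.23, and Irf4, a transcription factor of dendritic cells, had 0.49 ± 0.33. Of 15 macrophage and monocyte markers, 7 were lower, 1 higher (Mertk) and 7 not called, with a median of -0.51 and 3602 to 5684 against 2865 to 4202 summed TPM. Of 10 B cell markers 4 could be tested and 3 were lower, with sums of 7.17 to 9.63 and 3.51 to 5.57 TPM. Defining B cell markers were near 0. Ms4a1 (CD20) had at most 3 counts per library, and Cd79a, a chain of the B cell receptor complex that was too scarce to test, had 2 to 5 counts in vehicle and 6 to 16 in antagonist libraries, opposite to the 3 that fell. Of 12 pan-leukocyte genes, 9 were lower and 0 higher, with a median of -0.78 and 1355 to 1883 against 766 to 1064 summed TPM.

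Some of the marker lists of other ear tissues differed as well. Cartilage markers were at 606 to 1059 summed TPM in vehicle and 358 to 643 in antagonist samples, with 12 of 16 tested lower. Of 10 fibroblast markers, 8 were lower with a median of -1.52, where 17.4% of all tested genes were called lower. The 4 cartilage genes not called, named after their values were seen, were Acan (-0.14 ± 0.18), Sox9 (-0.26 ± 0.25), Chad (-0.20 ± 0.19) and Ucma (-0.91 ± 0.35). Pdgfra (-0.28 ± 0.15) and Fbln1 (-0.08 ± 0.10) of the fibroblast list were not called either. Keratinocyte markers overlapped, at 20113 to 31516 and 21122 to 26287 summed TPM, with 0 of 10 lower and 1 higher. Endothelial markers had 1 of 6 lower and 0 higher, with a median log2 fold change of -0.07. Skeletal muscle markers had 0 of 8 lower and 1 higher, with a median of 0.31. No listed marker was at 0 in every sample. The part of these cell and tissue differences in the class II values was not tested beyond the models below.

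Set against the pan-leukocyte mean of the same sample, each of the 10 genes had a negative difference, from -0.71 for Ciita and -0.66 for H2-Eb1 to -0.19 for H2-DMa on the log2 scale. None passed the exact two-sided permutation test after adjustment over 10 ratios, where a lone ratio cannot go below 0.0794. The smallest adjusted p was 0.0794, for Ciita and for H2-Ob (-0.49), both at an exact p of 0.0159. Cd74 had -0.49 at an exact p of 0.0952 and an adjusted p of 0.136.

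The calls did not hold when a marker score (mean log2 CPM of a list) entered the edgeR model beside the group. With the cartilage, pan-leukocyte or dendritic and Langerhans score, 0 of the 10 and 0 of all genes were called in each model, while 1878, 1011 and 788 genes had an unadjusted p under 0.05, among them 5, 1 and 2 of the 10. Of the last 2, H2-Eb2 had the opposite direction (2.41). Group accounted for 69.2, 85.1 and 88.1% of the variance of these scores, so score and group overlapped heavily. The log2 fold changes of the 10 stayed negative with the cartilage score (-1.33 to -0.26) and the pan-leukocyte score (-1.45 to -0.19). With the dendritic and Langerhans score, 7 turned to zero or above, among them Cd74 at 0.39 ± 0.42, H2-Aa at 0.30 ± 0.51 and H2-Ab1 at 0.26 ± 0.52 (SE). Apart from H2-Eb2, each of these 7 was smaller than its SE. H2-Ob kept -1.30 ± 0.50, with Ciita at -0.37 ± 0.66 and H2-DMa at -0.29 ± 0.35. Within groups, the mean of the class II genes had a Pearson r of 0.81 with this score and 0.91 with the costimulatory and T cell score. It had 0.46 with the cartilage score and 0.37 with the pan-leukocyte score (10 samples, a description). Other lists were also high, at 0.72 for B cells, 0.72 for endothelium, 0.60 for macrophages and monocytes and 0.56 for skeletal muscle. Keratinocytes had 0.25. Group accounted for only 5.58% of the variance of the endothelium score, a share that does not bear on r within groups. High r also came with lists of cells that are not the usual carriers, and why was not tested.

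**Figure D4:**
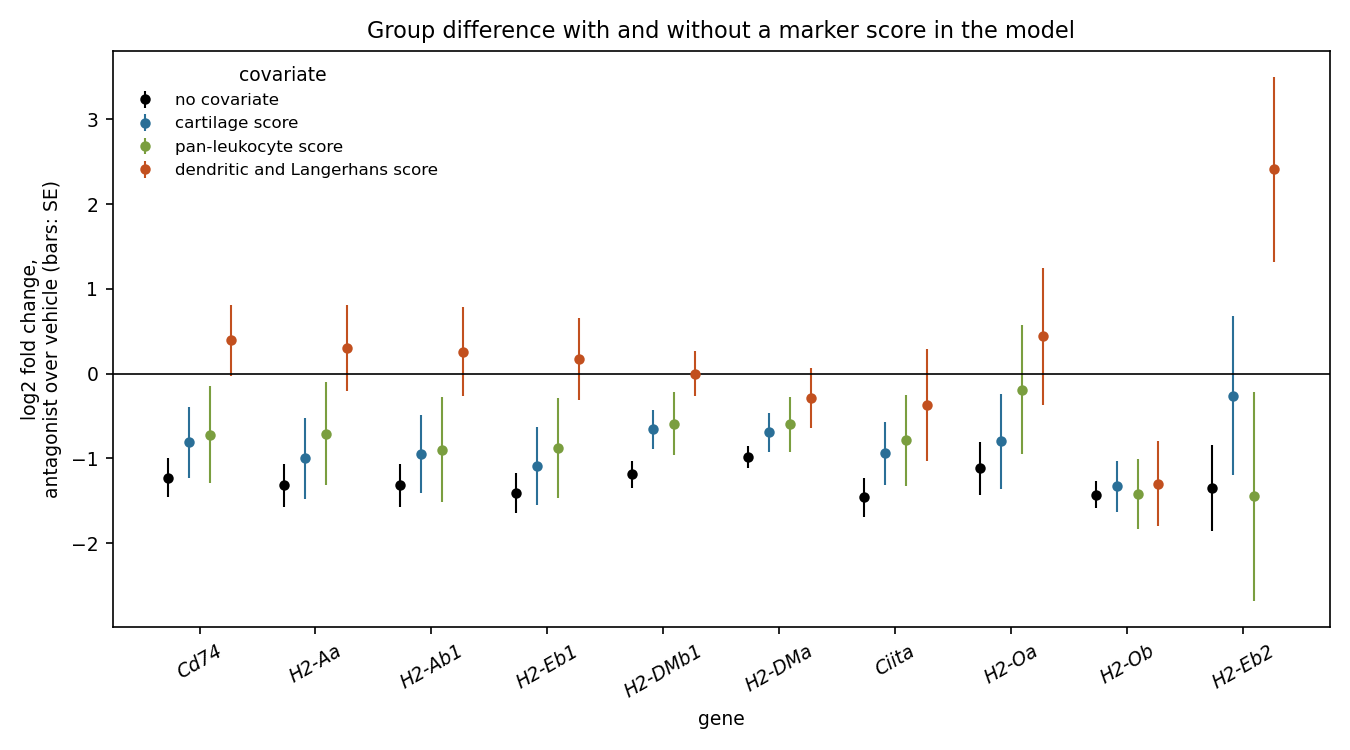
Log2 fold change (antagonist over vehicle) of the 10 genes with no covariate and with each of 3 marker scores in the edgeR model, with SE as bars. The values without covariate lie between -1.46 and -0.99, those with the dendritic and Langerhans score spread from -1.30 for H2-Ob to 2.41 for H2-Eb2, and the SE is wider with each score.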

How the data were processed

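RNA-seq of 10 left ear skin samples was used, 5 vehicle and 5 antagonist. Per the file headers, the authors deposited expected counts, TPM and FPKM per library for 19703 genes, and a DESeq2 comparison with log2 fold changes, p-values and q-values. FPKM was not used. Per the submitters' processing notes, HISAT was used, and the sources used here give no version, counting tool or strand setting. All per-library columns matched a sample title (0 unmatched).

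Expected counts were rounded, filtered with filterByExpr (about 10 counts, 15 in total; 15174 genes kept), TMM-scaled and tested with edgeR 4.0.16 (R 4.3.3, quasi-likelihood F test, Benjamini-Hochberg over all tested genes, threshold 0.05). The code was tested on simulated data. Log2 CPM carry a prior count of 2. Alternatives used limma 3.58.1, DESeq2 1.42.0, other scalings and filters, log2(TPM + 1) and log2(TPM + 0.1), samples left out and marker scores as covariates. No pair of libraries was a copy: differences were at least 21.5 times sampling noise. Start and end in the table equalled the RefSeq GRCm38.p6 gene extents for the 8 genes on chromosome 17; promoter windows may start at other transcripts. Some list genes are counted but not reported here. The members and lists were chosen with earlier results of these data known. Named by rule were the 10 genes, called regulators and processing genes, and the 4 genes of smallest p in other lists. Some others were named after their values were seen.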

Additional observations from a re-analysis of the deposited data

How the results depend on the processing

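Depth limits H2-Eb2, H2-Oa and H2-Ob, whose counts were low, and the group cannot be told apart from scores that differ with it. In 18 analyses with other scalings, filters, tools, units or a sample left out, the 9 called genes stayed lower and past the threshold, and the number called lower was 9 to 10 with each sample left out. Over all genes, 1966 (without vehicle sample 3) to 2865 (without antagonist sample 4) were called lower in those fits, against 2646 with every sample. On log2(TPM + 1), which understates the change of low genes, H2-Ob had -0.57 and H2-Oa -0.74. H2-Eb2 passed in 5 of the 18, at -1.88 to -1.0, had -0.31 without passing on log2(TPM + 1), and was not tested under a mean of at least 1 CPM. With each of the 3 scores as a covariate, 0 genes were called lower, and the cause was not tested. With the dendritic and Langerhans score, the values at or above zero included 0.30 ± 0.51 for H2-Aa, 0.26 ± 0.52 for H2-Ab1 and 0.17 ± 0.48 for H2-Eb1 (SE). The others were 2.41 ± 1.09 for H2-Eb2, 0.00 ± 0.27 for H2-DMb1, 0.44 ± 0.81 for H2-Oa and 0.39 ± 0.42 for Cd74.

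Of the 9 ratios to Cd74, 2 passed on log2(TPM + 1), in opposite directions: H2-Eb1 at -0.17 and H2-Eb2 at 1.00. The H2-Eb2 ratio differed by 0.00 in the main analysis, and log2(TPM + 1) understates the change of low genes. On that scale Ciita turned to 0.23. With each sample left out, 0 to 2 ratios passed, the 2 (H2-Eb1 and H2-DMa) without antagonist sample 8. With each sample left out, the ratio of H2-Ob ranged from -0.20 to 0.16 and that of H2-Eb2 from -0.14 to 0.14. Against the pan-leukocyte mean, H2-Eb2 had -0.49, H2-DMa -0.19, H2-DMb1 -0.40, H2-Oa -0.33 and H2-Ob -0.49. No paired analysis was made because the labels state no pairing between the groups. The 1 replicate number that both groups share is not said to mark a pair.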

Other observations

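The genes whose log2 CPM followed the mean of the class II genes most closely were sought with group means taken off. Among genes whose mean log2 CPM was 1 or more, the 8 highest were Slc16a14 (Pearson r of 0.94 over 10 samples), Ptprcap (0.93), Zfp472 (0.93), Gpr171 (0.92), Ccdc122 (0.91), Cd72 (0.90), Ptprb (0.90) and Il2ra (0.90). Of these 8, 4 were lower in antagonist ears by edgeR, where 17.4% of all tested genes were called lower. Gpr171, a receptor found on T cells, had a log2 fold change of -1.60 (adjusted p = 4.51e-04) and Ptprcap, which binds the leukocyte phosphatase CD45, had -1.13 (adjusted p = 0.00206). Cd72, a B cell coreceptor, had -1.0 (adjusted p = 0.00481) and Il2ra, the interleukin 2 receptor alpha chain, had -0.80 (adjusted p = 0.00820). The other 4 had log2 fold changes of -0.22 to -0.12 and were not called. These correlations are descriptions, chosen as the highest of all genes.

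In the authors' deposited table, the log2 fold changes of the 10 class II genes ran from -1.46 for Ciita to -0.99 for H2-DMa.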
